A study of Schizosaccharomyces pombe with 6 samples.

Results

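The genes described here encode proteins that form disulfide bonds and fold new proteins in the endoplasmic reticulum (ER) of fission yeast, together with the ER stress sensor Ire1. Of 6 genes chosen for these functions (ero11, ero12, bip1, cnx1, lhs1 and ire1), 5 had a probe set, 1 each, among the 2896 *S. pombe* genes with a gene ID to which the array annotation gives a probe set of their own. No gene of the reference used here carries the name lhs1, and it was not analysed. The reference has a gene lsh1 with a probe set, and whether that is the gene meant was not settled. Wild-type 972 h- cells were grown in liquid medium to an OD600 of 0.5. In the treated group, 3 cultures received 50 µM NaHS, a donor of hydrogen sulfide (H2S), for 30 min at 30°C, while the 3 cultures of the control group received none. 1 Affymetrix Yeast Genome 2.0 array was used for the RNA of each culture. The deposited value is the log2 of the signal of a probe set, and 1 unit on this scale is a 2-fold change.

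Secretory proteins enter the ER unfolded and in reduced form. The oxidoreductins of the Ero1 family pass oxidizing equivalents to protein disulfide isomerases, which make and rearrange the disulfide bonds of the clients, and reduced Ero1 hands its electrons to oxygen. The chaperone BiP, an Hsp70 protein, binds exposed hydrophobic stretches, and calnexin holds glycoproteins while they fold. When unfolded proteins build up, the kinase and nuclease Ire1 becomes active. Fission yeast has no transcription factor of the Hac1 type downstream of Ire1. There Ire1 cuts selected mRNAs of the ER, most of which are then degraded, and the cut mRNA of bip1 is instead more stable.

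In response to NaHS, ero11 stood out among the 5 genes with a 1.85-fold higher signal, bip1 had a 1.23-fold higher signal, and cnx1, ero12 and ire1 differed by at most 1.10-fold (n = 3 arrays per group). With arrays paired by their labelled replicate number, the size of the ero11 change was nearly the same in each pair, but its level differed between replicates in both groups. The comparison of the group means therefore left it just outside the threshold (limma adjusted p = 0.061), and the same test with the replicate number as a block placed it well inside (adjusted p = 0.00128). Of the 5 genes, 0 passed the test of the group means. It called 7.63% of the 4965 probe sets tested, and 3.97% as higher. With the replicate block 2 of the 5 genes, ero11 and bip1, rose and 0 fell, while this fit called 32.7% of all tested probe sets and 16.3% as higher.

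On the arrays as a whole, replicate 1 stood apart from replicates 2 and 3 in both groups. Over the tested probe sets, replicates 2 and 3 correlated with r = 0.996 in the untreated group and 0.994 in the NaHS group, and r lay between 0.969 and 0.970 for pairs within a group that included replicate 1. The medians of the tested probe sets were between 9.49 and 9.58 on all 6 arrays. The *S. cerevisiae* probe sets on the same arrays, which have no target in this RNA, had medians between 0.01 and 0.40, and the lowest signal of any of the 5 genes on any array was 8.72. All 5 genes were therefore measured far above background on every array.

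The gene ero11 (SPBC4F6.16c) encodes an ER oxidoreductin, 1 of the 2 Ero1 proteins of fission yeast. Its log2 signal was 9.78, 9.32 and 9.24 on untreated arrays 1, 2 and 3, and 10.68, 10.19 and 10.12 on NaHS arrays 1, 2 and 3. The groups did not overlap, the lowest NaHS array being 0.34 above the highest untreated array, and replicate 1 was the highest in both groups. The mean went from 9.45 ± 0.29 (SD, n = 3) to 10.33 ± 0.30 (SD, n = 3), a log2 fold change of 0.89 (standard error 0.21, 95% interval 0.38 to 1.39). In fold terms the interval runs from 1.30 to 2.63. Within replicates 1, 2 and 3 the change was 0.90, 0.88 and 0.88, with an SD of 0.011. An SD this small or smaller over the 3 numbers was found for 1.47% of all tested probe sets, whose median was 0.090, and 1.81% of them had a higher log2 fold change than ero11. The SD depends on the pairing by number, and exchanging the partners of arrays 2 and 3 would make it larger. Their pairing rests on the labels. Deviations from the group means correlated as closely across these numbers (0.592 and 0.637) as within them (0.578 and 0.598). With the block the standard error fell to 0.040 and the interval narrowed to 0.78 to 0.99. SAM, the test named in the methods of the study, also called ero11 higher, as it did for 2.38% of the probe sets, in a version programmed for this work. The study itself lists ero11 among its induced genes from these arrays, so these calls are no independent evidence of its direction.

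**Figure D1:**
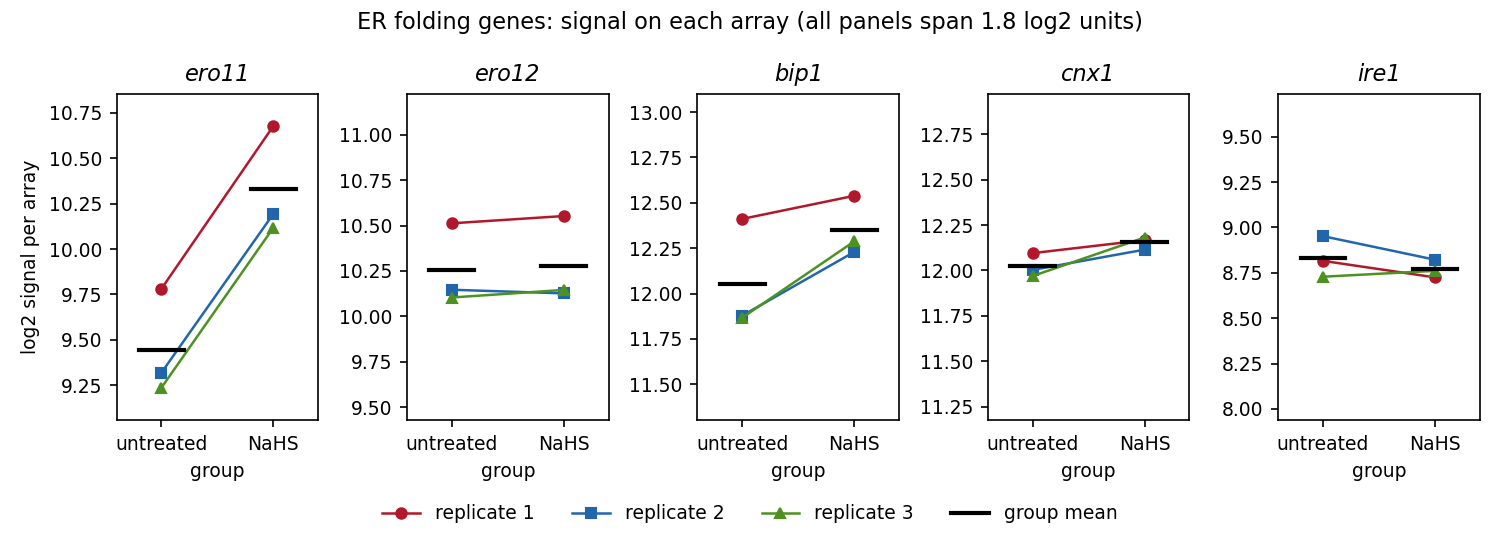
Log2 signal (vertical axis) of the 5 genes on each of the 6 arrays, untreated on the left and NaHS on the right of each panel, with lines joining arrays of the same replicate number and black bars for the group means. The 3 lines of ero11 are parallel and rise by 0.88 to 0.90, those of ero12 are flat, and replicate 1 lies above the others in both groups for ero11, ero12 and bip1.

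The second oxidoreductin gene, ero12 (SPCC1450.14c), did not share this pattern. Its log2 signal was 10.51, 10.15 and 10.10 on untreated arrays 1, 2 and 3 and 10.55, 10.13 and 10.15 on the NaHS arrays. Both groups covered nearly the same range, and replicate 1 was again the highest in each. The log2 fold change was 0.02 (95% interval -0.39 to 0.43, adjusted p = 0.985), and with the block the interval was -0.09 to 0.13 (adjusted p = 0.756). The changes within replicates 1, 2 and 3 were 0.04, -0.02 and 0.04.

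Because both genes were measured on the same arrays, the difference in their response can be taken within each array. The log2 signal of ero11 minus that of ero12 was higher after NaHS by 0.86, and by 0.86, 0.90 and 0.84 within replicates 1, 2 and 3 (SD 0.029). The 3 NaHS arrays all lay on one side of the 3 untreated arrays. The exact permutation test, two-sided, gave p = 0.1, the smallest value that 3 against 3 arrays allow (adjusted p = 0.1 over the 5 pairs of genes compared). The same p was found for ero11 against bip1, with a difference of 0.59 (SD 0.16 over the replicate numbers), against cnx1 with 0.75 (SD 0.078) and against ire1 with 0.95 (SD 0.086). ero11 was taken as the reference of these pairs with its induction known.

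The gene bip1 (SPAC22A12.15c) encodes BiP, the Hsp70 chaperone of the ER. Its log2 signal was 12.41, 11.88 and 11.87 on untreated arrays 1, 2 and 3, and 12.54, 12.23 and 12.29 on the NaHS arrays. The groups overlapped through untreated replicate 1, which was above NaHS replicates 2 and 3. The log2 fold change was 0.30 (standard error 0.18, 95% interval -0.13 to 0.73, adjusted p = 0.405). Within replicates 1, 2 and 3 it was 0.13, 0.35 and 0.42, upward each time but with an SD of 0.15, a value that 77.3% of the tested probe sets did not exceed. With the replicate block bip1 rose (adjusted p = 0.0381, 95% interval 0.11 to 0.49). With both arrays of replicate 1 left out, the log2 fold change was 0.39 (adjusted p = 0.026) and that of ero11 was 0.88 (adjusted p = 0.00558). In that fit 2 of the 5 genes were called higher, as were 6.97% of all tested probe sets. With number 2 or 3 left out instead, bip1 had 0.27 (adjusted p = 0.841) and 0.24 (adjusted p = 0.825). The log2 fold change of ero11 was 0.89 in both, and it was not called (adjusted p = 0.431 and 0.365). These 2 fits called 7 and 0 of all tested probe sets. The position of the bip1 probes relative to the Ire1 cleavage site was not examined.

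The gene cnx1 (SPAC3C7.11c) encodes calnexin, the membrane lectin that retains glycoproteins until they are folded. Its log2 signal was 12.10, 12.00 and 11.97 on untreated arrays 1, 2 and 3 and 12.17, 12.11 and 12.18 on the NaHS arrays. The groups did not overlap, but the margin between them was only 0.019. The log2 fold change of 0.13 (95% interval -0.04 to 0.30) did not pass the test (adjusted p = 0.348, or 0.108 with the block). Within replicates 1, 2 and 3 it was 0.07, 0.11 and 0.21, and the upper end of the interval of the group means corresponds to 1.23-fold.

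The sensor gene ire1 (SPAC167.01) was the only member with a negative difference. Its log2 signal was 8.82, 8.95 and 8.73 on untreated arrays 1, 2 and 3 and 8.72, 8.82 and 8.76 on the NaHS arrays, and the groups overlapped. The log2 fold change was -0.06 (95% interval -0.27 to 0.14, adjusted p = 0.778), and the changes within replicates 1, 2 and 3 were -0.09, -0.13 and 0.03. The array gives the level of the ire1 mRNA and not the activity of the protein.

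**Figure D2:**
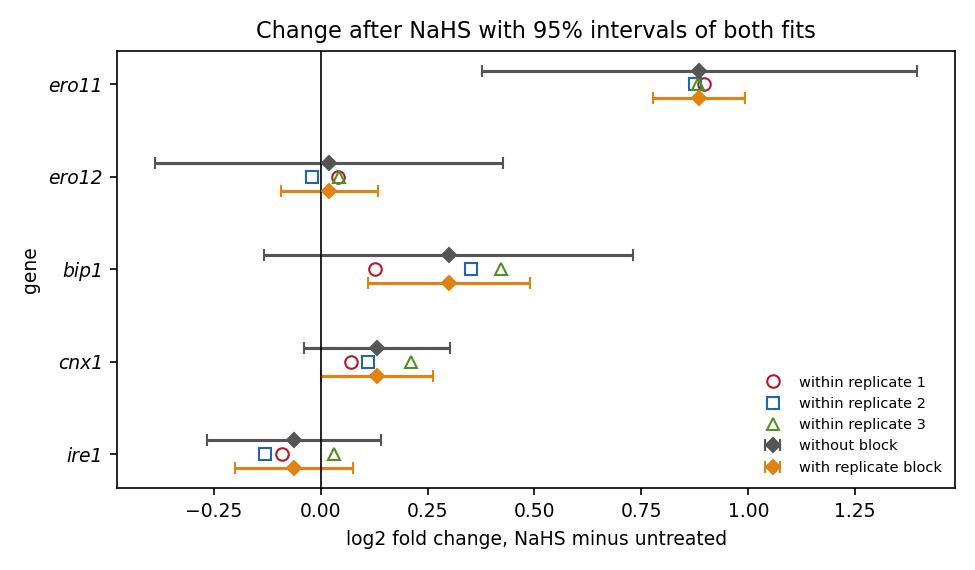
Log2 fold change of NaHS over untreated (horizontal axis) for the 5 genes. Diamonds with bars give the estimate with its 95% interval without (grey) and with (orange) the replicate block, and open symbols the change within each replicate number. Only the interval of ero11 lies above 0 in both fits, and with the block those of bip1 (from 0.11) and, barely, cnx1 (from 0.002) do so too.

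Counted over the 5 genes, 2 (ero11 and cnx1) had all NaHS arrays above all untreated arrays, a pattern that 14.6% of the tested probe sets showed. In 3 of the 5 (ero11, bip1 and cnx1) the signal was higher after NaHS within each replicate number, as in 33.3% of the tested probe sets. The median log2 fold change of the 5 genes was 0.13, beside 0.01 over all tested probe sets. These shares were not tested, since the genes were chosen with earlier results of these data known.

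The levels of ero11, ero12 and bip1 in replicate 1 exceeded the mean of replicates 2 and 3 by 0.50, 0.39 and 0.54 on the untreated arrays and by 0.52, 0.42 and 0.28 on the NaHS arrays. For cnx1 these shifts were 0.11 and 0.02, and for ire1 -0.02 and -0.07. For ero12 the shift exceeded the response to NaHS, and for ero11 it was smaller than the response. A shift above 0.3 in both groups was found for 2 of the 5 genes, ero11 and ero12, and for 15.1% of all tested probe sets. The 5th and 95th percentiles of the shift over all tested probe sets were -0.50 and 0.76 on the untreated arrays and -0.48 and 0.79 on the NaHS arrays, so that the 5 genes lay inside this range. The sample titles and descriptions give the same number to 1 untreated and 1 NaHS array, but each description also ends in "biological rep1". The part of culture, RNA or array handling in this shift was not tested.

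**Figure D3:**
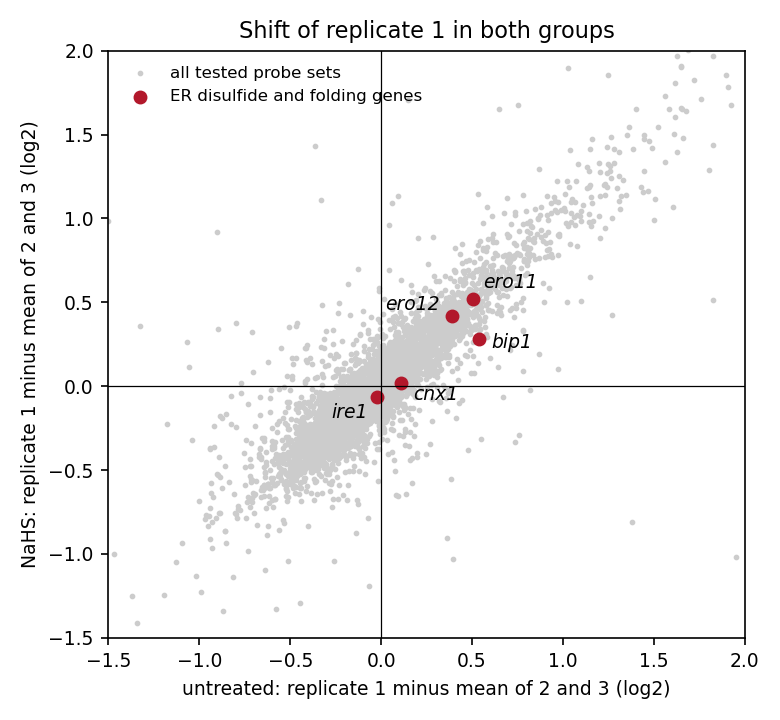
Log2 signal of replicate 1 minus the mean of replicates 2 and 3, on untreated arrays (horizontal axis) and NaHS arrays (vertical axis), for all tested probe sets (grey, 60 of them outside the plotted range) and the 5 genes (red). ero11, ero12 and bip1 lie in the upper right, with shifts of 0.28 to 0.54, and cnx1 and ire1 lie near 0.

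Over the 6 arrays, the single-gene probe sets with the profile most like that of ero11 were those of ppr8 (Pearson r = 0.997), which encodes a pentatricopeptide repeat protein, sod22 (r = 0.996), a cation antiporter gene of the plasma membrane, and cul1 (r = 0.995), which encodes a cullin of ubiquitin ligases. All 3 combined a higher signal after NaHS, with log2 fold changes of 0.49, 0.61 and 0.50, with a higher replicate 1. None of them passed the test of the group means (adjusted p = 0.0598, 0.0511 and 0.115), and all passed with the block (0.00417, 0.00297 and 0.00403). The nearest profiles to ero12 were those of avt5 (r = 0.999), a vacuolar amino acid transporter gene, psl1 (r = 0.997) and cut11 (r = 0.997), which encodes a nuclear envelope protein. Their replicate 1 was higher by 1.35 to 1.73 in both groups, and their log2 fold changes were 0.09, 0.04 and 0.10.

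For bip1 the nearest profiles were those of tel2 (r = 0.995), a gene of telomere and checkpoint control, gsk3 (r = 0.991), which encodes a protein kinase, and cta4 (r = 0.991), which encodes a cation-transporting ATPase of the ER. For cnx1 they were plb1 (r = 0.996), a phospholipase gene, apm1 (r = 0.996), which encodes a subunit of a clathrin adaptor, and arp3 (r = 0.992), which encodes an actin-related protein. The best match for ire1, tmp1, had r = 0.935. Among the 5 genes themselves, r was 0.911 between ero11 and cnx1, 0.881 between ero11 and bip1, 0.526 between ero11 and ero12, and negative between ire1 and each of the others. These values rest on 6 arrays that share 1 difference between groups and 1 between replicates, and they are given as a description.

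The rest of the secretory pathway was followed in 10 lists with 85 gene names. The annotation used here pairs 62 of them with a probe set. In these lists 2 genes (3.23%) rose, 0 fell and 60 did not pass the test of the group means, which called 3.97% of all tested probe sets higher. The median log2 fold change was 0.07, beside 0.01 over all tested probe sets. With the replicate block, 12 of the 62 (19.4%) rose and 3 (4.84%) fell, beside 16.3% and 16.4% of all tested probe sets, so that the share of rises was near the background. The rises in that fit were spread unevenly, with 8 of the 12 in the list of ER-associated degradation.

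ER-associated degradation draws misfolded proteins back to the cytosol, where the ATPase Cdc48 and the proteasome act on them. Of its 10 measured genes, 1 rose in the comparison of the group means, ubx3, which encodes a UBX domain protein of the kind that binds Cdc48. Its log2 signal changed by 0.88, 1.03 and 0.87 within replicates 1, 2 and 3, 0.93 in the mean (adjusted p = 0.0029, standard error 0.08). With the block, which called 16.3% of all tested probe sets higher, 8 of the 10 rose, among them ubc7, a ubiquitin-conjugating enzyme gene (log2 fold change 0.49, adjusted p = 0.00884), cdc48 (0.27, adjusted p = 0.0242) and hrd1, which encodes a ubiquitin ligase of the ER membrane (0.23, adjusted p = 0.0272). The other 2 were ufd1, with a log2 fold change of 0.17, and doa10, with -0.005. Of the 8 that rose, ubc6 (adjusted p = 0.0495 with the block) and npl4 (0.0461) lay just inside the threshold. Over the whole list the median was 0.27. Cdc48 and its partners also act outside the ER, so that this list is not particular to ER proteins.

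Among the lists closest to the work of Ero1 and calnexin, few genes were measured. Of 5 disulfide isomerase genes the annotation used here pairs only pdi3 with a probe set. Its log2 fold change was 0.17 (adjusted p = 0.423, or 0.0433 with the block). Of the partners of BiP only sec63 was measured, a DnaJ-type protein of the translocon, with 0.08 (adjusted p = 0.885, or 0.196 with the block). Within replicates 1, 2 and 3 it changed by 0.09, 0.08 and 0.07. The SD of these changes, 0.008, was smaller than the 0.011 of ero11. In the glycoprotein folding cycle, in which glucosidases and the glucosyltransferase Gpt1 control binding to calnexin, 0 of 5 genes passed in either fit. The gene gpt1 itself was 1.12-fold higher, within its error in the comparison of the group means (adjusted p = 0.733). With the block its interval was 0.03 to 0.30 on the log2 scale (adjusted p = 0.0745). In this list replicate 1 was higher in both groups for all 5 genes, and by more than 0.3 for 4 of them, beside 39.0% and 15.1% of all tested probe sets.

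Counts for the earlier and later steps of the pathway stand beside the shares of all tested probe sets. The test of the group means called 7.63% of them. With the block 16.3% were called higher and 16.4% lower. Of 11 genes for entry into the ER, 0 passed the test of the group means and 1 fell with the block, and of 17 genes for the synthesis of the N-glycan precursor 0 passed and 1 fell with the block. The 6 measured genes of the oligosaccharyltransferase had log2 fold changes between -0.11 and 0.18, with stt3, the gene of the catalytic subunit, called higher with the block (adjusted p = 0.0397), and those of the signal peptidase between -0.06 and 0.17. In the COPII coat that buds vesicles from the ER, spo14, which encodes the exchange factor of the GTPase Sar1, was 1.28-fold higher (standard error 0.07 on the log2 scale, adjusted p = 0.0328), while sar1 had 0.10 (adjusted p = 0.508). With the block sec16, the gene of a coat scaffold, rose too (log2 fold change 0.18, adjusted p = 0.0484), and pmr1, a cation pump gene of the Golgi, fell (-0.20, adjusted p = 0.0343). SAM did not call spo14, and its limma call was lost in each of the 6 fits without 1 array and with arrays centred on their medians, while its log2 fold change stayed between 0.33 and 0.38. The call of ubx3 was kept in all 6 fits without 1 array.

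**Figure D4:**
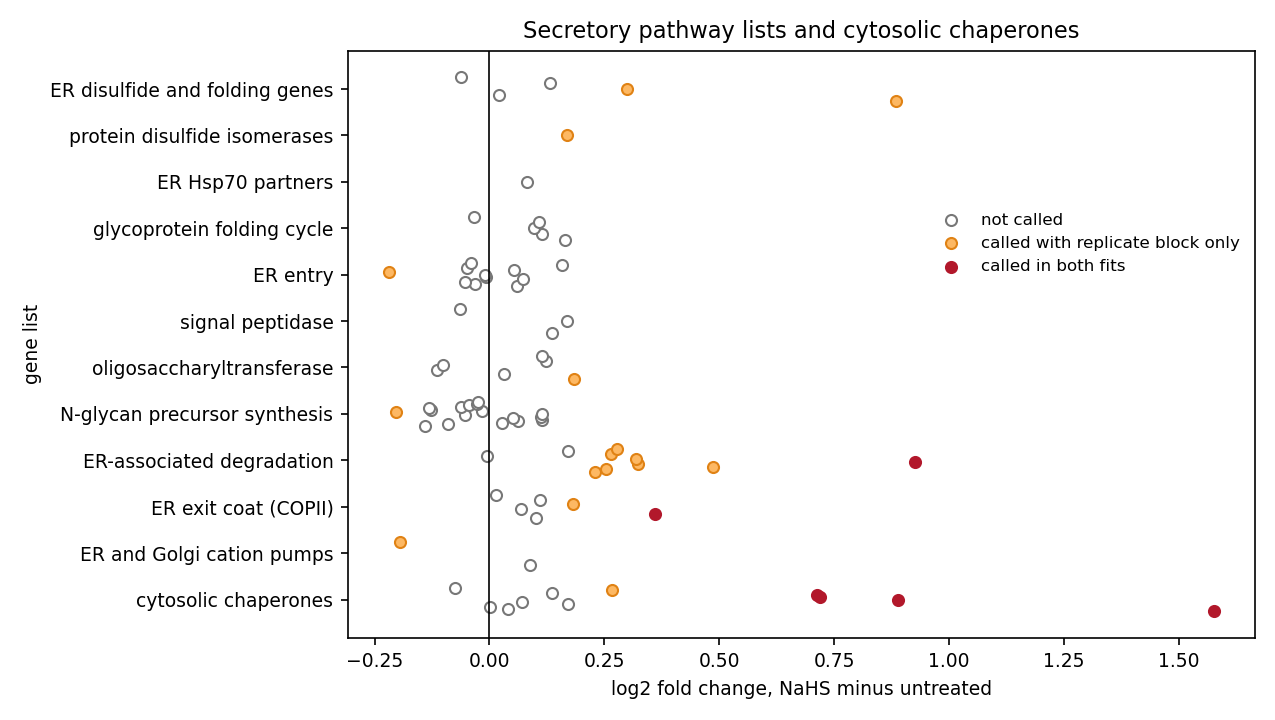
Log2 fold change of NaHS over untreated (horizontal axis) for each measured gene of the ER disulfide and folding genes, the 10 secretory pathway lists and the cytosolic chaperones, 1 point per gene. Filled red points were called in both fits, orange points only with the replicate block, and open points in neither. In the list of ER-associated degradation 8 of 10 points are coloured, and ero11 is orange at 0.89.

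Chaperones of the cytosol were taken as a comparison. Of 11 measured cytosolic chaperone and co-chaperone genes 4 rose, in a test that called 3.97% of all tested probe sets higher, with log2 fold changes of 1.58 for ssa1, 0.89 for hsp16, 0.72 for sti1 and 0.71 for cdc37, and the median of the list was 0.17. The calls of sti1 and cdc37 were lost without untreated replicate 2 or 3, at log2 fold changes of 0.69 and 0.73 for sti1 and of 0.72 and 0.70 for cdc37. The Hsp70 gene ssa1 and bip1 encode related chaperones of the 2 compartments, a pair picked after their values had been seen. The log2 fold change of bip1 was smaller than that of ssa1 by 1.49, 1.29 and 1.05 within replicates 1, 2 and 3, a mean difference of -1.28 (SD 0.22, exact permutation p = 0.1, the smallest possible). This difference is particular to ssa1. The Hsp70 genes ssa2 and sks2 of the same list had log2 fold changes of 0.04 and 0.002 (limma adjusted p = 0.926 and 0.998), below the 0.30 of bip1. By size, ero11 (0.89) was close to hsp16 (0.89) although its standard error, 0.21, was larger than the 0.10 of hsp16.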

How the data were processed

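Per the labels and the methods of the study, an array service processed the 6 arrays for the authors, and the deposited values are log2 signals made with MAS5. Neither its version nor its scaling target was stated in what was read. Blank cells (15 in the tested probe sets) were set to 0. The platform annotation was joined to RefSeq names by gene ID. Tested were 2917 probe sets paired with 1 *S. pombe* gene, 20 paired with several and 2028 unlisted ones, 4965 in all. Unlisted ones had to exceed a mean of 3.67, which 99% of the 2601 *S. cerevisiae* probe sets did not reach.

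The comparison of NaHS with untreated arrays used limma 3.58.1 and R 4.3.3 (two-sided, 4 residual and 2.016 prior degrees of freedom), with Benjamini-Hochberg adjustment over all tested probe sets and a threshold of 0.05. Within-array differences were tested by exact permutation with Python 3.11.15. Intervals are 95% intervals of the fits. The number of arrays limits the precision. The main fit, the fit with the replicate block and SAM were tested on simulated data, which had no shared shift of replicate 1. The other fits were not tested in this way.

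Deviations from the group means correlated by 0.867, 0.578 and 0.598 between arrays numbered 1, 2 and 3, above the 0.1 set as the minimum. Replicate 1 stood apart in both groups, so arrays 2 and 3 pass this minimum under either pairing. The numbers, which come from the sample titles, were taken to pair the cultures. The main test has no block, and the fit with the replicate block stands beside results it changes. Arrays 2 and 3 correlated by 0.592 and 0.637 across numbers, so their pairing rests on the labels.

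Members and lists were chosen with earlier results of these data known. Named were all members, up to 4 called genes of each list by size, and the 3 closest profiles to each member. Other genes were chosen after their values were seen. Of the 85 list names 18 were paired with no probe set in this annotation and 5 had no gene in the reference. In the reference png1 is a gene other than the peptide N-glycanase meant. That gene is ngl1 there and is paired with no probe set. The study describes the array as covering all *S. pombe* genes, so such genes may lie among the unlisted probe sets.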

Additional observations from a re-analysis of the deposited data

How the results depend on the processing

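The direction of ero11, bip1, cnx1 and ire1 was the same under every alternative run. For ero11, not called in the main test, the log2 fold change was 0.89 and called with the replicate block, with an intensity trend in the variance prior (adjusted p = 0.0369) and by SAM, and 0.88 and called with replicate number 1 left out of both groups. Without 1 array it ran from 0.71 to 1.05 and passed in 1 of 6 fits, that without untreated replicate 1 (adjusted p = 0.0463). For bip1 it was 0.30 with the block and 0.39 without number 1, both called, and 0.21 to 0.48 without 1 array. With number 2 or 3 left out of both groups, neither ero11 nor bip1 was called. The block changed the call of no other member. Without 1 array the log2 fold change of ero12 ran from -0.12 to 0.15 and was negative (-0.12) without NaHS replicate 1 and also without either of untreated replicates 2 (-0.03) and 3 (-0.05).

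Members called higher were 2 with the block or without number 1, 1 with the trend or SAM, and 0 to 1 without 1 array. Of all tested probe sets, 16.3% were called higher with the block, 6.97% without number 1 and 2.38% by SAM. Secretory genes called higher, 2 in the main test, were 12 with the block (3 lower), 5 without number 1, 0 without number 2 or 3, 1 with median centring or SAM, and 1 in every fit without 1 array. Calls over all probe sets in either direction were 379 in the main test, 1622 with the block and 442 with the trend. They were 710, 7 and 0 without numbers 1, 2 and 3, and 95 to 224 without 1 array. The paired probe sets alone, 2917 with 1 gene and 20 with several, gave 169, a count from fewer probe sets than the 4965 of the main test. SAM, over all 4965, gave 149. With number 2 or 3 left out, 2 arrays a group remain and include replicate 1, and the low counts say nothing about single genes. The cause of these differences was not tested further. Member signals were well above background on every array.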

Other observations

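In the gene order of the reference, ero11 lies between swi10, which encodes a DNA repair protein, and hsp78, which encodes a chaperone of the mitochondrial matrix. The log2 fold change of swi10 was -0.35 (adjusted p = 0.326, or 0.0148 with the replicate block). The annotation used here pairs no probe set with the *S. pombe* gene hsp78, and it was not analysed here. The neighbours of cnx1 had log2 fold changes of 0.04 (pex13, adjusted p = 0.938) and 0.36 (tip1, adjusted p = 0.329, or 0.0111 with the block). The neighbours of ero12, bip1 and ire1 were not paired with a probe set in this annotation and were not analysed here either.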
